A study of Mus musculus with 6 samples.

Results

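Cytosolic ribosomal protein genes encode the proteins of the ribosomes that translate messenger RNA in the cytoplasm. They were taken as every gene of the count table whose symbol is Rpl or Rps followed by a number, with at most a letter a, x, y or l and a further number, together with Rplp0, Rplp1, Rplp2 and Rpsa, which gave 85 genes and left 26903 others in the table. Of these, 31 name proteins of the small subunit, 43 name proteins of the large subunit, 3 name the stalk proteins (Rplp0, Rplp1 and Rplp2), and 8 carry paralogue-type symbols (Rpl3l, Rpl7l1, Rpl22l1, Rpl39l, Rps4l, Rps27l, Rpl6l and Rpl32l). Rps4l and Rpl6l are pseudogenes in RefSeq and Rpl32l is protein coding in RefSeq and a processed pseudogene in GENCODE M21. Rpl6l and Rpl32l were placed with the paralogues after the table had been seen. The symbol pattern leaves out genes such as Fau and Rack1, which also encode ribosomal proteins, and the pseudogenes whose symbols end in -ps and a number, and these are described separately.

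Polyadenylated RNA was sequenced from 6 samples of C57BL/6 mice, 3 of genotype Hes1KO and 3 of genotype WT, that carry the label of mesenchymal stromal cells from bone marrow. Hes1 encodes a transcriptional repressor of the Notch pathway. Mice with a floxed Hes1 allele (Hes1fl/+) had been crossed with Prx1Cre mice, whose Cre is driven by the Prx1 promoter and enhancer in early limb bud mesenchyme and part of the craniofacial mesenchyme. The protocols describe the source animals as heterozygous and do not say how many alleles were deleted in them, and the labels give neither age nor sex nor whether each library came from a separate animal. The p-values below therefore measure only the spread between these libraries, which may be technical. WT replicate 1 held 66167 counts against 5812598 to 22131465 in the other 5 libraries, and it is left out of the group comparisons except in 1 fit of all 6 libraries and in the alternatives that name all 6.

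Each cytosolic ribosome holds a single copy of nearly every one of these proteins, a small subunit that reads the messenger RNA and a large subunit that joins amino acids. Their messenger RNAs are short, abundant, and commonly begin with a terminal oligopyrimidine (TOP) tract, a start on C followed by pyrimidines, through which mTORC1 and the binding protein Larp1 control their translation. The mouse genome also carries many processed pseudogenes of these genes, whose sequences can be nearly identical to the parent messenger RNA, and several of the genes hold small nucleolar RNA (snoRNA) genes in their introns. Rapidly dividing cells, including blood progenitors, are known for high expression of this gene class.

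Levels are given as CPM, counts scaled to a library total of 1000000. For Hes1, the targeted gene, Hes1KO replicates 1, 2 and 3 had 8.36, 10.4 and 12.4 CPM, WT replicates 2 and 3 had 53.3 and 28.5 CPM, and WT replicate 1 had 0 counts. All 3 Hes1KO libraries lay below both of those WT libraries, with a log2 fold change of -2.55 (SE 0.31, adjusted p = 0.0294, edgeR quasi-likelihood test with Benjamini-Hochberg adjustment). The 14 stromal markers made up 0.0206 to 0.0343% of counts in Hes1KO, 0.0227% in WT replicate 2 and 0.00842% in WT replicate 3. In WT replicate 1 they made up 0.0967%, where Runx2 held 61 of 64 counts. The most abundant were Runx2, with 261, 128 and 187 CPM in Hes1KO against 152 and 54.3 CPM, and Eng, with 40.8, 23.9 and 33.9 CPM against 31.7 and 21.6 CPM. Prrx1, the gene whose promoter drives the Cre, had 0 to 2 counts in every library, and Pdgfra and Col3a1 had 0 counts in WT replicate 2. Blood markers were far more abundant: 15 neutrophil genes took 5.05, 13.4 and 6.13% of counts in Hes1KO against 1.60 and 0.0379% in WT replicates 2 and 3. The 12 erythroid genes took 0.0229 to 0.367% in Hes1KO, 0.0721% in WT replicate 2 and 42.9% in WT replicate 3. The 14 macrophage and monocyte genes took 1.12 to 2.09% in Hes1KO against 0.227 and 0.0200%, and the 12 B lineage genes took 0.205 to 0.319% against 0.782 and 0.453%. The 8 stem and progenitor genes took 0.0578 to 0.0898% in Hes1KO against 0.142 and 0.0560%.

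The 85 genes together took a larger part of the counts in Hes1KO than in WT replicates 2 and 3. Their summed share was 1.63, 1.54 and 1.55% in Hes1KO replicates 1, 2 and 3 (mean 1.57 ± 0.0473, SD, n = 3). It was 0.770% in WT replicate 2 and 0.408% in WT replicate 3, and the ratio of the group means was 2.67. The lowest Hes1KO library thus lay above the higher WT library, while the WT libraries differed more from each other than the Hes1KO libraries did among themselves. With 3 libraries against 2, an exact two-sided permutation test cannot go below p = 0.1, so calls for single genes came from the model fitted across all genes. In bulk RNA, fewer cells of a type and less of an RNA per cell cannot be told apart. The neutrophil, macrophage and monocyte, and B lineage shares above also separated these groups. For the erythroid and stromal shares WT replicate 2 lay within the Hes1KO range, and the Hes1KO stem and progenitor shares lay between the WT ones. The part of these cell types in the result was not tested.

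**Figure D1:**
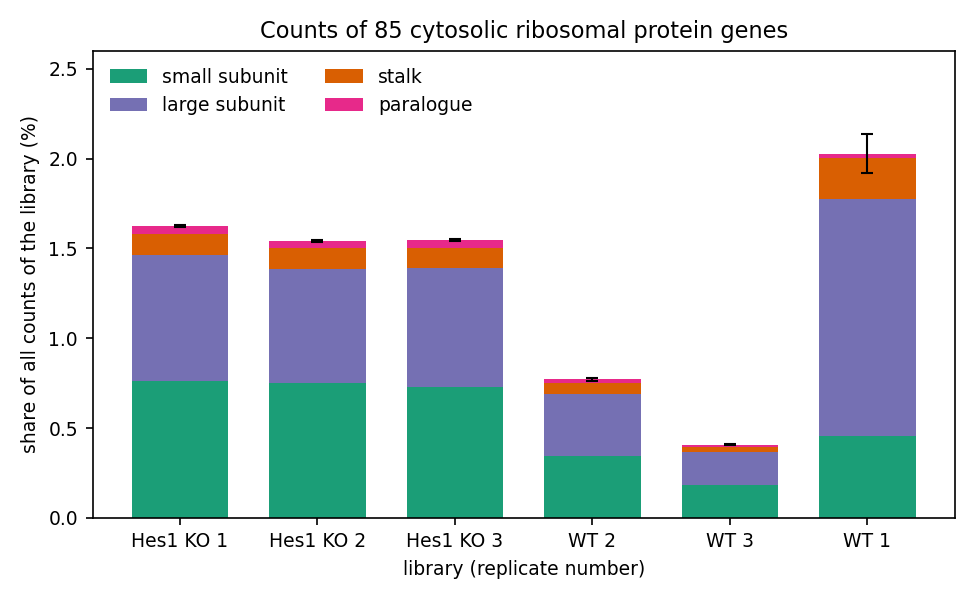
Share of all counts taken by the 85 ribosomal protein genes in each library (%), stacked by role, with 95% Wilson intervals of the summed share that cover counting error only. The Hes1KO libraries stand at 1.63, 1.54 and 1.55%, WT replicates 2 and 3 at 0.770 and 0.408%, and the shallow WT replicate 1 at 2.03%.

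Haemoglobin genes took 39.9% of the counts of WT replicate 3, and leaving them out of the total raised its ribosomal protein share to 0.678%. The Hes1KO shares then stood at 1.63, 1.54 and 1.55%, still above both WT libraries. Scaling by trimmed mean of M-values (TMM), which estimates library factors from the bulk of genes, gave factors of 1.26, 1.05 and 1.24 in Hes1KO, 1.37 in WT replicate 2 and 0.445 in WT replicate 3. After that scaling the shares were 1.29, 1.46 and 1.25% in Hes1KO, 0.564% in WT replicate 2 and 0.917% in WT replicate 3, so the order of the WT libraries was turned and the groups did not overlap. The small subunit genes alone took 0.764, 0.750 and 0.730% of counts in Hes1KO against 0.343 and 0.181%, the large subunit genes 0.699, 0.636 and 0.659% against 0.345 and 0.183%, and the stalk genes 0.116, 0.114 and 0.115% against 0.0642 and 0.0327%. Each of these groups of genes therefore separated Hes1KO from both WT libraries in the same direction.

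Within the Hes1KO group the genes were tightly reproducible. The median coefficient of variation over the 3 Hes1KO libraries was 5.24% for ribosomal protein genes with a mean of at least 50 CPM, against 16.5% for all genes at that level. Rpl26, a large subunit protein at the rim of the exit tunnel, had 67.01, 65.7 and 66.2 CPM in the 3 libraries, the smallest variation of all 85. Rps29, a small zinc-binding protein of the small subunit head, had 49.2, 24.9 and 23 CPM, with replicate 1 well above the others, and its coefficient of variation was 45.1%. The WT libraries were less alike, with WT replicate 2 above WT replicate 3 in CPM for 71 of 85 genes and a median fold of 1.76, against a median fold of 3.09 over all genes tested.

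In CPM, 69 of the 85 genes had all 3 Hes1KO libraries above both WT libraries, where 35.1% of all 16190 genes tested did. Rpl3l alone had all Hes1KO libraries below both WT libraries, where 7.54% of all genes did, and 15 genes overlapped. After TMM scaling 64 genes lay wholly above (31.2% of all genes), 2 lay wholly below (24.5% of all genes; Rpl11 and Rpl3l) and 19 overlapped. The genes whose CPM overlapped included Rpsa, Rpl3, Rpl39, Rps3a1, Rpl19, Rpl11, Rpl17, Rpl28, Rps12 and Rpl24. In 9 of the 85 genes WT replicate 2 was above all 3 Hes1KO libraries, whereas WT replicate 3 was above them in 1.

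In the edgeR fit of the 5 libraries, 79 of 85 genes had a positive log2 fold change (92.9%, against 50.7% of all genes tested), and their median was 0.79 against 0.02 over all genes. Few were past the threshold: 5 of 85 rose and 0 fell at an adjusted p under 0.05, where 15.5% of all genes tested were called, 7.44% higher and 8.09% lower. The called share of 5.88% was thus not above the background. At an unadjusted p under 0.05 there were 32 genes (37.6%, 31 of them positive) against 39.8% of all genes. Restricted to genes with a mean of at least 50 CPM, a level chosen after the values were seen, 4 of 48 ribosomal protein genes rose, where 19.2% of 4373 genes were called and 12.3% were called higher, and the medians were 0.83 and 0.18. The class thus lay mostly on the positive side, with log2 fold changes of 0.46 and 1.03 at the quartiles, and few single genes passed. Scaling by library size alone moved the median of all genes to 0.44 and upper quartile scaling moved it to -0.19, and relative to it the median of the 85 genes was 0.98 and 0.77, beside 0.77 with TMM. DESeq2 called 20 of the 85 (19 higher, 1 lower), including the same 5, where it called 30.9% of all genes. Limma-voom called 4 of the 85, where it called 8.89% of all genes. In edgeR, leaving out any 1 of the Hes1KO libraries removed every call, among all genes as among these 85. With a WT library left out, 14 were called without WT replicate 2 (29% of all genes were then called) and 56 without WT replicate 3 (35.5%). In these fits the spread comes from the Hes1KO libraries alone, and the lone WT library is assumed to vary as they do, so the counts say nothing about stability. The median of the 85 genes relative to that of all genes was 0.36 without WT replicate 2 and 1.31 without WT replicate 3.

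**Figure D2:**
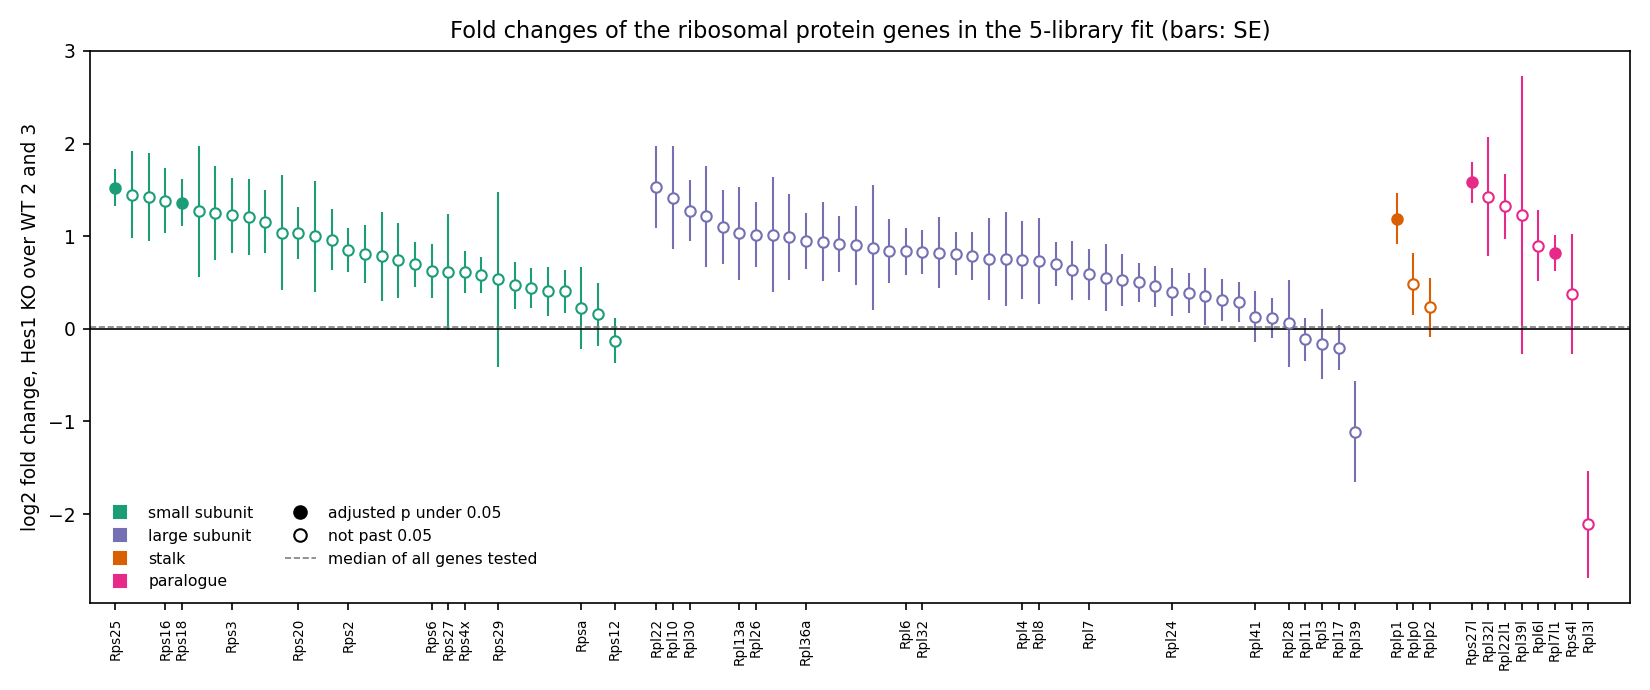
Log2 fold change of Hes1KO over WT replicates 2 and 3 for each of the 85 genes, ordered within each role, with bars for the standard error and names for genes described in the text; filled points passed an adjusted p of 0.05 (edgeR). All but 6 genes lie above zero, 5 filled points are all positive, and Rpl3l and Rpl39 lie lowest at -2.11 and -1.11.

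Of the 31 small subunit genes, 2 rose, where 7.44% of all genes tested did. A positive fold change was found in 30, where 50.7% of all genes had one, and the median was 0.81. Rps25, a protein of the small subunit head known to bind viral internal ribosome entry sites, had 127, 117 and 128 CPM in Hes1KO against 45.9 and 17.5 CPM in WT replicates 2 and 3. Rps18, also of the head and in contact with the large subunit, had 127, 133 and 121 CPM against 48.0 and 21.7 CPM. For both genes every Hes1KO library lay far above the higher WT library. In the edgeR fit Rps25 rose by 1.52 on the log2 scale (SE 0.20, adjusted p = 0.0294) and Rps18 by 1.36 (SE 0.25, adjusted p = 0.0329).

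The next small subunit genes by p-value missed the threshold with similar sizes. Rps16, a head protein whose tail reaches the transfer RNA in the decoding centre, stood at 64.7, 66.9 and 67.6 CPM against 18.9 and 13.0 CPM (log2 fold change 1.38, SE 0.35, edgeR adjusted p = 0.0537). Rps20 had 310, 295 and 315 CPM against 136 and 68.3 CPM (1.03, SE 0.28, edgeR adjusted p = 0.0576), and Rps2, which lines the messenger RNA entry channel, had 249, 193 and 253 CPM against 125 and 55.2 CPM (0.85, SE 0.24, edgeR adjusted p = 0.0614). The groups did not overlap for any of these genes.

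The abundant small subunit message Rps3, which lies at the messenger RNA entry site and also has roles in DNA repair, had 1364, 1267 and 1245 CPM in Hes1KO against 503 and 253 CPM. Its fold change was 1.22 (SE 0.41, edgeR adjusted p = 0.0870), with a standard error larger than the 0.20 of Rps25. At the other end Rps12 was the only small subunit gene with a negative value, at 13.2, 10.2 and 14.4 CPM against 14.1 and 5.70 CPM (log2 fold change -0.13, SE 0.24, edgeR adjusted p = 0.724), and its libraries overlapped.

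Rpsa, the laminin receptor precursor that also forms part of the small subunit, departed from its group in WT replicate 2. It had 179, 181 and 175 CPM in Hes1KO, 261 CPM in WT replicate 2 and 29.8 CPM in WT replicate 3. The Hes1KO libraries had a coefficient of variation of 1.56% and lay between the WT libraries, which differed 8.75-fold. Its fold change was 0.23 (SE 0.44, edgeR adjusted p = 0.723).

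Of the 43 large subunit genes, 0 passed the edgeR test in either direction, where 15.5% of all genes tested did. A positive fold change was found in 39, where 50.7% of all genes had one, and the median was 0.75. Rpl30, a small protein at the subunit interface, came nearest, with 60.5, 58.8 and 61.8 CPM in Hes1KO against 19.1 and 12.6 CPM (1.28, SE 0.33, edgeR adjusted p = 0.0555). Rpl4, the most abundant of the 85 by count in all 5 libraries, had 1732, 1322 and 1610 CPM against 926 and 391 CPM. Rpl13a and Rpl8, the latter a protein near the peptidyl transferase centre, followed with 975, 1002 and 911 CPM against 300 and 259 CPM, and with 900, 817 and 848 CPM against 337 and 277 CPM. In these 3 genes the groups were well apart. In CPM, 32 of the 43 large subunit genes had all Hes1KO libraries above both WT libraries, where 35.1% of all genes tested did.

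Rpl39 and Rpl3 did not follow. Rpl39, a very small X-linked protein of the exit tunnel, had 47.9, 55.4 and 48.2 CPM in Hes1KO, 204 CPM in WT replicate 2 and 16.4 CPM in WT replicate 3. Rpl3, which reaches towards the peptidyl transferase centre, had 76.1, 52.9 and 73.7 CPM, then 122 and 16.6 CPM. In both genes WT replicate 2 was the highest of the 5 libraries and WT replicate 3 the lowest, with WT folds of 12.5 and 7.35. The edgeR log2 fold changes were -1.11 (SE 0.55, adjusted p = 0.185) for Rpl39 and -0.16 (SE 0.37, adjusted p = 0.767) for Rpl3. Both turned positive without WT replicate 2, to 0.24 and 0.61.

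Rpl11, which binds Mdm2 when ribosome assembly is impaired, and Rpl17 lay near zero. Rpl11 had 11.7, 9.97 and 10.6 CPM in Hes1KO against 13.6 and 4.29 CPM, and Rpl17 had 20.02, 16.7 and 16.2 CPM against 20.1 and 8.75 CPM. Their fold changes were -0.11 (SE 0.23, edgeR adjusted p = 0.744) and -0.21 (SE 0.24, edgeR adjusted p = 0.553), and Rpl41, the smallest protein of the large subunit, stood at 0.13 (SE 0.27, edgeR adjusted p = 0.746) with 210, 222 and 208 CPM against 180 and 88.9 CPM.

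The 3 stalk proteins form the flexible arm of the large subunit that recruits elongation factors. Rplp1 rose by 1.19 on the log2 scale (SE 0.28, edgeR adjusted p = 0.0451), from 202 and 84.1 CPM in WT replicates 2 and 3 to 449, 464 and 441 CPM in Hes1KO. Rplp0, the base of the stalk, had 628, 604 and 626 CPM against 387 and 208 CPM (0.48, SE 0.34, edgeR adjusted p = 0.326), and Rplp2, the partner of Rplp1, had 80.9, 76.0 and 87.0 CPM against 53.2 and 34.8 CPM (0.23, SE 0.32, edgeR adjusted p = 0.612). In CPM all 3 genes had every Hes1KO library above both WT libraries, where 35.1% of all genes tested did. After TMM scaling Rplp2 overlapped, and the difference of Rplp1 from its partners was not tested.

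The X-linked genes were Rpl10, Rpl36a, Rpl39 and Rps4x. Rpl10, which completes the large subunit late in its assembly, had 144, 135 and 128 CPM against 24.1 and 30.5 CPM (1.42, SE 0.56, edgeR adjusted p = 0.120). In unscaled CPM its WT replicate 3 lay above WT replicate 2, whereas WT replicate 2 was the higher for 71 of the 85 genes. After TMM scaling the summed share of the class was itself higher in WT replicate 3 (0.917%) than in WT replicate 2 (0.564%). Rpl36a had 9.22, 6.57 and 8.02 CPM against 5.33 and 1.32 CPM (0.95, SE 0.30, edgeR adjusted p = 0.0795). Rps4x had 300, 268 and 299 CPM against 241 and 63.3 CPM (0.61, SE 0.23, edgeR adjusted p = 0.109). In CPM, Rpl10, Rpl36a and Rps4x had all Hes1KO libraries above both WT libraries and Rpl39 overlapped. Most autosomal genes of the class also lay above, where 35.1% of all genes tested did.

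Paralogues encode variant ribosomal proteins that can replace the usual one in some tissues. Of the 8 genes with such symbols, 2 rose, where 7.44% of all genes tested did. A positive fold change was found in 7, where 50.7% of all genes had one, and the median was 1.06. Rps27l, a target of p53 nearly identical in protein to Rps27, had 75.4, 62.4 and 65.6 CPM in Hes1KO against 29.6 and 7.35 CPM and rose by 1.58 on the log2 scale (SE 0.22, edgeR adjusted p = 0.0300). Its parent Rps27 had 41.5, 52.4 and 39.6 CPM against 11.9 and 18.3 CPM (0.61, SE 0.63, edgeR adjusted p = 0.492). WT replicate 2 thus held more Rps27l and WT replicate 3 more Rps27, and Rps27rt, a retrotransposed copy outside the symbol pattern, held 385, 486 and 365 CPM in Hes1KO against 97.9 and 139 CPM, above Rps27 itself.

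Rpl7l1, a nucleolar relative of Rpl7 linked to assembly of the large subunit, had 112, 84.6 and 90.4 CPM against 65.2 and 19.5 CPM and rose by 0.82 (SE 0.20, edgeR adjusted p = 0.0482). Rpl7 had 332, 320 and 327 CPM against 202 and 97.8 CPM (0.59, SE 0.27, edgeR adjusted p = 0.165). Rpl22 and Rpl22l1, a pair known from lymphocyte development, moved side by side: Rpl22 had 393, 333 and 341 CPM against 77.8 and 67.2 CPM (1.53, SE 0.44, edgeR adjusted p = 0.0671), and Rpl22l1 had 70.0, 63.3 and 62.2 CPM against 19.3 and 13.4 CPM (1.32, SE 0.35, edgeR adjusted p = 0.0577). Both genes of that pair were higher in every Hes1KO library than in either WT library, and neither passed the threshold.

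Rpl3l, the striated muscle form of Rpl3, was the lowest of the 85 by fold change and among the least abundant. It had 46, 73 and 73 counts in Hes1KO (2.08, 3.45 and 3.55 CPM) against 40 and 94 counts in WT replicates 2 and 3 (6.88 and 7.76 CPM). The groups did not overlap, with a log2 fold change of -2.11 (SE 0.58, edgeR adjusted p = 0.0612). Rpl39l, known from the testis, had 3, 13 and 13 counts in Hes1KO, 0 in WT replicate 2, which allows up to 0.516 CPM, and 2 in WT replicate 3, so no difference was detectable at this depth.

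Rps4l had 6.64, 10.8 and 9.14 CPM against 2.92 and 4.29 CPM (0.38, SE 0.65, edgeR adjusted p = 0.690). Rpl6l had 97.7, 92.5 and 100.4 CPM against 35.3 and 27.7 CPM (0.90, SE 0.38, edgeR adjusted p = 0.140), and Rpl32l had 118, 102 and 105 CPM against 15.1 and 25.4 CPM (1.43, SE 0.64, edgeR adjusted p = 0.157). These last 2 genes drew counts of the same order as their parents Rpl6, with 86.8, 77.9 and 84.4 CPM, and Rpl32, with 220, 225 and 226 CPM, in Hes1KO.

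**Figure D3:**
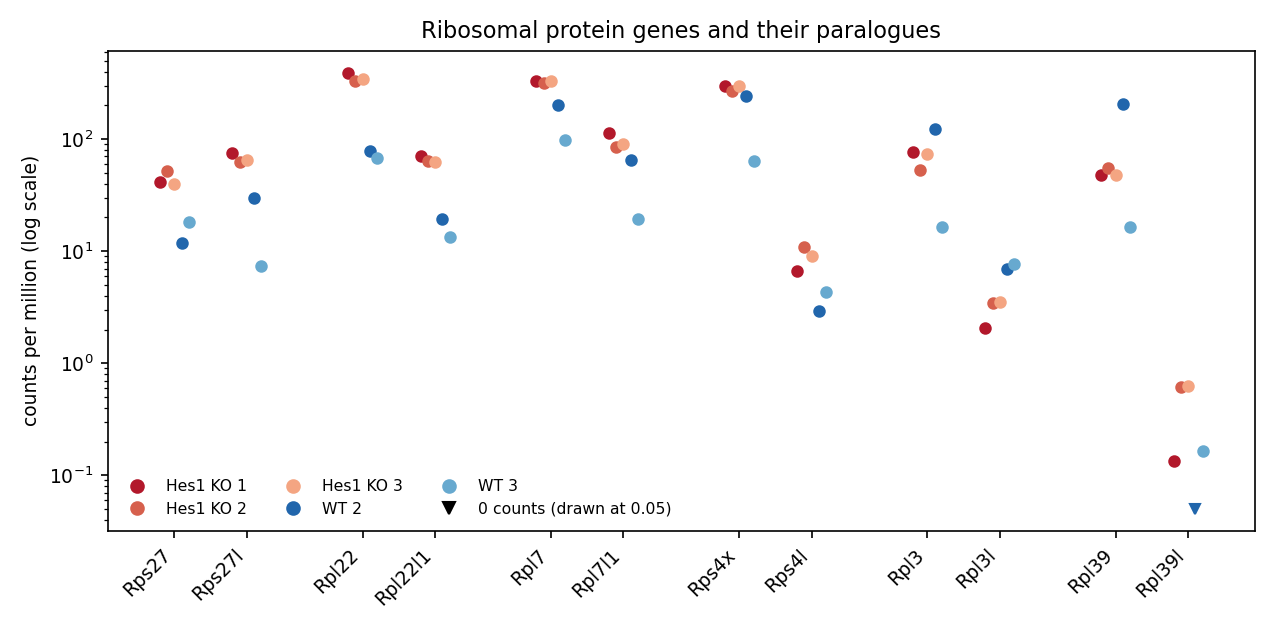
CPM (log scale) of 6 parent genes and their paralogues in the 3 Hes1KO libraries (reds) and WT replicates 2 and 3 (blues); a triangle marks 0 counts. Rps27l, Rpl22, Rpl22l1 and Rpl7l1 lie higher in Hes1KO, Rpl3l lies lower, and Rpl3 and Rpl39 are highest in WT replicate 2.

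Libraries were also scaled to the summed counts of the 85 genes, which centres the class by construction and leaves only its composition to differ. Of the 85, 37 then had a positive and 48 a negative fold change, a split set largely by the scaling, and 57 lay within 0.5 log2 of zero. In that edgeR fit 2 of 85 fell and 0 rose, where 29.5% of all genes tested were called (1.25% higher, 28.2% lower) and the median over all genes was -0.90. Rpl3l fell by 2.85 (SE 0.47, edgeR adjusted p = 0.0192) and Rpl17 fell by 1.09 (SE 0.26, edgeR adjusted p = 0.0337). At an unadjusted p under 0.05 there were 6 genes, which added Rps12 at -1.01, Rpl11 at -1.04, Rpl41 at -0.73 and Rpl39 at -2.24. Rpl22 had the largest positive value at 0.76 (SE 0.33, edgeR adjusted p = 0.127).

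The split between subunits was close to constant in the 5 libraries. Small subunit genes took 47.0, 48.6 and 47.2% of the summed counts in Hes1KO and 44.6 and 44.4% in WT replicates 2 and 3. Large subunit genes took 42.9, 41.2 and 42.6% against 44.8 and 44.9%, and stalk genes took 7.12, 7.42 and 7.46% against 8.34 and 8.03%. The groups did not overlap for any of the 3 shares, and the differences were of a few percentage points at most. Across the 85 genes, Pearson's r of log2 CPM was 0.992 to 0.997 between Hes1KO libraries, 0.960 to 0.969 between Hes1KO and WT replicate 3, 0.891 to 0.905 between Hes1KO and WT replicate 2, and 0.886 between the WT libraries. These values describe 85 points that share gene length and near-identical copies. The profile of WT replicate 2 thus stood farther from the other 4 libraries than WT replicate 3 did.

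**Figure D4:**
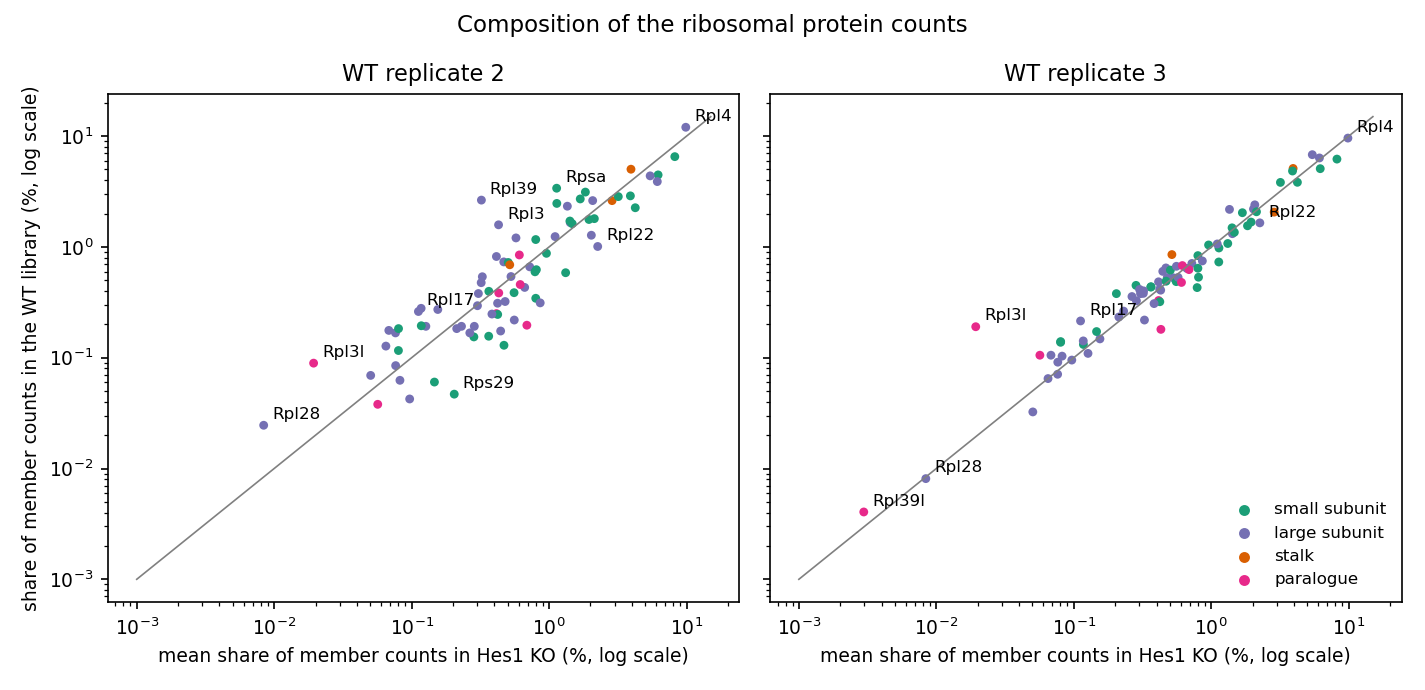
Share of the summed ribosomal protein counts held by each gene, mean of the 3 Hes1KO libraries against WT replicate 2 (left) and WT replicate 3 (right), both axes log scale; the line marks equal shares and a gene at 0 counts is not drawn. Points hug the line on the right except for Rpl3l, while Rpl39, Rpl3 and Rpsa lie above it and Rps29 below it on the left.

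The genes that set WT replicate 2 apart can be named. Rpl39 held 2.65% of the summed counts there against 0.295 to 0.401% in the other 4 libraries, Rpsa 3.39% against 0.731 to 1.17%, and Rpl3 1.58% against 0.343 to 0.476%. Rps29 held 0.0469% there against 0.149 to 0.379%. Rpl39, Rpsa and Rpl3 each hold snoRNA genes within their span in GENCODE M21 (Snora69 in Rpl39, Snora62 in Rpsa, Snord83b in Rpl3). Over the 30 genes with a snoRNA inside, the median fold of WT replicate 2 over WT replicate 3 was 1.96, and over 47 without it was 1.72, a comparison chosen after the values were seen. The snoRNA genes of the table took 0.0330% of counts in WT replicate 2 and 0.00454 to 0.0158% in the other 4 libraries, and their part in these values was not tested.

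Per kilobase of coding length, the mean level over the 5 libraries differed widely between the genes. The highest was Rpl41 at 2423 CPM per kb, whose coding length is only 75 bases, followed by Rps3 at 1271. The lowest apart from paralogues were Rpl28 at 3.003, Rpl24 at 18.3 and Rpl11 at 18.8 CPM per kb. Rpl28 had just 27, 31 and 26 counts in Hes1KO, and 11 and 4 in WT replicates 2 and 3.

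The order of levels went with the number of near-identical copies of each gene elsewhere in the genome. A copy was counted where another gene's transcript in GENCODE M21 matched at least 95% of bases over at least 90% of the coding length. Of 77 genes apart from paralogues, 3 had 0 such copies, among them Rps3 at 1271 and Rpl8 at 825 CPM per kb. The 35 genes with 1 to 5 copies had a median of 179 CPM per kb and the 39 with more had a median of 113 CPM per kb (Spearman's rho over the 77 genes -0.42, a description across genes that share libraries). Rpl21 had the most copies, 56. How reads with several matches were counted is not given, so levels of genes with copies are uncertain, as is the strand setting, and reads of antisense partners cannot be told apart. In unscaled CPM, the median fold of Hes1KO over WT was 3.42 in the 3 genes with 0 copies, 2.84 with 1 to 5 copies and 2.31 with more. Over all genes tested it was 1.35.

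**Figure D5:**
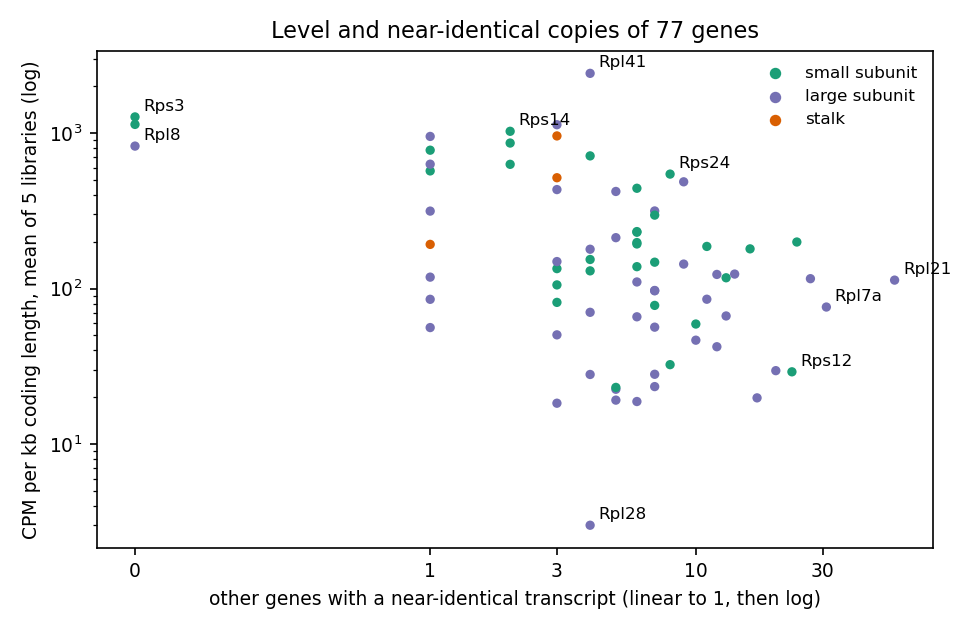
Mean CPM per kb of coding length over the 5 libraries (log scale) against the number of other genes with a near-identical transcript (linear to 1, then log) for 77 genes, coloured by role. Rps3 and Rpl8, with 0 copies, lie near the top, and Rpl41 lies above and Rpl28 below all others.

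For some genes a copy outside the symbol pattern held more counts than the gene itself. In Hes1KO, Rpl37rt had 13.4 times the CPM of Rpl37, Rps27rt 9.26 times that of Rps27, Rps6-ps4 8.54 times that of Rps6, Rpl36al 8.5 times that of Rpl36a, Rpl14-ps1 4.96 times that of Rpl14 and Rps12-ps24 4.13 times that of Rps12. Rps6, whose phosphorylation is the usual readout of mTORC1 activity, thus had 67.5, 48.3 and 56.6 CPM in Hes1KO where Rps6-ps4 had 539, 461 and 473 CPM. In WT replicates 2 and 3, Rps6 had 30.6 and 17.8 CPM and Rps6-ps4 had 342 and 131 CPM. Of 18 ribosomal protein pseudogenes in the table, 14 were tested and 0 passed the edgeR test in either direction, where 15.5% of all genes tested did. Of the 14, 12 were positive, where 50.7% of all genes were, and their median was 1.23 against 0.02 over all genes. Adding them to the class raised its share to 1.78, 1.67 and 1.68% in Hes1KO and to 0.842 and 0.442% in WT replicates 2 and 3.

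Start sites are shown for the called genes in the RefSeq promoter table (Rplp1 is not in it) and for Rpl3l and Rpl39, the lowest by fold change, since TOP tracts are the class's best known shared sequence. Each window runs from 60 bases before to 15 bases from the annotated start on GRCm38.p6, 5′ to 3′ on the gene's strand, and capitals mark the longest unbroken run of C and T that comes within 10 bases of the start. The windows are chr9:44407654-44407728 on the plus strand for Rps25, chr17:33955651-33955725 on the minus strand for Rps18, chr9:66946026-66946100 on the plus strand for Rps27l, chr17:46782642-46782716 on the minus strand for Rpl7l1, chr17:24727766-24727840 on the plus strand for Rpl3l and chrX:37085208-37085282 on the minus strand for Rpl39.
Rps25: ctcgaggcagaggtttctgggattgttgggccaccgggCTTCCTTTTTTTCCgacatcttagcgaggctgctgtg
Rps18: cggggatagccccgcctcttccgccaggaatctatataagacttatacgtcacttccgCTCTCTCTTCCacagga
Rps27l: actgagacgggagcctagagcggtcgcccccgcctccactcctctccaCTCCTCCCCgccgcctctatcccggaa
Rpl7l1: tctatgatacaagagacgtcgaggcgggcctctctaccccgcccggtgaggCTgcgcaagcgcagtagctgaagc
Rpl3l: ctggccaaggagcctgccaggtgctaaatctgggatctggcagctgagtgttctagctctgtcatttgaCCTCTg
Rpl39: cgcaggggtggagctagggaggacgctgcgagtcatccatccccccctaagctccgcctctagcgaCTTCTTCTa
The run was 14 bases long in Rps25, 11 in Rps18, where it spanned the annotated start, 9 in Rps27l, 2 in Rpl7l1, 5 in Rpl3l and 8 in Rpl39. Given as offsets from the start base, the run lay before it in Rps25 (-22 to -9), Rps27l (-12 to -4) and Rpl7l1 (-9 to -8). The run lay after the start base in Rpl3l (9 to 13) and Rpl39 (6 to 13). Rps27l and Rpl3l each have 2 listed starts, of which 1 is shown.

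Of the 85 genes, 63 were in the RefSeq promoter table, which gives 250 bases before and 50 after each start. An annotated start on C followed by at least 4 C or T was found in 14 of 63 (22.2%), against 3.01% of the promoters of 27025 genes and 3.20% of those of the 12080 tested genes in the table. The next shares are given against both sets in that order. A run of at least 7 C or T within 10 bases of the start was found in 35 (55.6% against 22.5 and 23.8%). The ETS site CCGGAAG was found on either strand in 26 (41.3% against 9.93 and 17.997%) and the Yy1 core AAGATGG in 10 (15.9% against 7.28 and 8.25%). For the motifs known to bind Hes1, the N box CACNAG occurred in 28 (44.4% against 46.1 and 45.9%) and the class C site CACGCG in 11 (17.5% against 10.5 and 17.6%), and the E box CACGTG occurred in 6 (9.52% against 8.09 and 10.98%). The ETS, Yy1, N box, class C and E box motifs were searched on both strands. None of these motifs contains another, and overlapping matches counted for each. The TOP start and the run of C or T were searched on the gene's strand only, and a TOP start can lie inside a longer run. The median log2 fold change was 0.66 with a TOP start and 0.82 without, 0.75 with the run of C or T and 0.82 without, 0.84 with the ETS site and 0.78 without, and 0.89 with the Yy1 core and 0.75 without. It was 0.69 with an N box and 0.82 without, 0.58 with the class C site and 0.80 without, and 0.70 with the E box and 0.79 without. A match describes the letters and does not show binding.

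Of 5 ribosomal proteins outside the symbol pattern, 1 rose and 0 fell, where 7.44% of all genes tested rose and 8.09% fell. The median of the 5 was 0.88, above the 0.79 of the class, whereas the lists of translation factors and regulators had medians below it. Rpl36al, a near copy of Rpl36a, rose by 1.21 (SE 0.30, edgeR adjusted p = 0.0490), from 24.3 and 14.0 CPM in WT replicates 2 and 3 to 70.7, 66.3 and 65.3 CPM. Of 13 elongation factors and other TOP messenger RNAs 0 passed the edgeR test in either direction and the median was 0.20, nearer to that of all genes than to that of the ribosomal proteins. Eef1b2, a nucleotide exchange subunit of elongation factor 1, had 456, 375 and 440 CPM against 214 and 88.5 CPM (1.00, SE 0.25, edgeR adjusted p = 0.0515). The summed share of the 13 genes was 0.963, 0.713 and 0.906% in Hes1KO against 0.724 and 1.08%, so the groups overlapped.

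Of 28 initiation factors 1 rose, 0 fell and the median was 0.39. It was Eif3m, a subunit of the factor that loads the small subunit, with 102, 79.7 and 83.6 CPM against 54.5 and 20.2 CPM (0.80, SE 0.20, edgeR adjusted p = 0.0495). Of 46 ribosome biogenesis genes 5 rose and 0 fell, where 7.44% of all genes tested rose and 8.09% fell. The median of the 46 was 0.49. The factor Eif6, which keeps the subunits apart and is named here after its value was seen, rose by 0.99 (SE 0.20, edgeR adjusted p = 0.0356). The others were Nop10 (1.52, SE 0.27, edgeR adjusted p = 0.0318) and Nhp2 (1.40, SE 0.21, edgeR adjusted p = 0.0300), core proteins of H/ACA snoRNA particles, and Ebna1bp2 (1.37, SE 0.30, edgeR adjusted p = 0.0411) and Rpf2 (1.22, SE 0.24, edgeR adjusted p = 0.0352), which assemble the large subunit. Nop10 had 86.3, 65.9 and 75.6 CPM against 23.1 and 12.4 CPM, with the groups apart.

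Of 12 RNA polymerase I genes tested, 0 passed the edgeR test in either direction and the median was 0.16. Of 18 mTORC1 components and regulators of ribosomal protein messenger RNA, 1 rose and 3 fell, where 7.44% of all genes tested rose and 8.09% fell. The median of the 18 was -0.11. The kinase Mtor fell by 1.10 (SE 0.25, edgeR adjusted p = 0.0427), its partner Rptor by 1.01 (SE 0.21, edgeR adjusted p = 0.0368) and the inhibitor Tsc1 by 0.97 (SE 0.21, edgeR adjusted p = 0.0415), whereas the activator Rheb rose by 1.00 (SE 0.18, edgeR adjusted p = 0.0323). In unscaled CPM the 3 that fell overlapped between groups, for example Mtor at 83.5, 46.2 and 81.0 CPM against 181 and 52.4 CPM, and they lay apart only after TMM scaling, while Rheb had 84.5, 67.9 and 77 CPM against 44.4 and 14.3 CPM. Of 14 snoRNA host genes 0 passed the edgeR test in either direction and the median was 0.31. The 150 tested genes of these lists gave 11 calls in all, against the background of 15.5%.

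WT replicate 1 could not be read gene by gene for most of the class. Of the 85 genes 51 had 0 counts there, and a count of 0 allows a level of up to 45.3 CPM in that library. A single count was worth 15.1 CPM. Its summed share of 2.03% (95% Wilson interval 1.92 to 2.14%) lay above all other libraries, yet Rpl22 alone took 38.9% of it, against 1.01 to 2.41% in the other 5 libraries. Small subunit genes took 22.4% of the summed counts and large subunit genes 65.3%. Pearson's r of its log2 levels over the 85 genes with the other libraries was 0.419 to 0.441. In a fit of all 6 libraries, edgeR called 0 of 14756 genes and 0 of 84 ribosomal protein genes, with 2200 and 5 at an unadjusted p under 0.05.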

How the data were processed

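RNA of 6 libraries, 3 Hes1KO and 3 WT, was counted per gene. The authors deposited whole-number read counts for the 85 ribosomal protein genes and 26903 other genes, made with featureCounts per the table's name and on GRCm39 per the submitters' processing notes, which also name edgeR and limma. For the aligner, the annotation and the strand setting: not given in the sources used here. Groups and replicate numbers came from the sample titles.

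Counts were tested as deposited in edgeR 4.0.16 (R 4.3.3) on 3 Hes1KO libraries and WT replicates 2 and 3: filterByExpr left 16190 genes, with TMM scaling, the quasi-likelihood test with the legacy option off, Benjamini-Hochberg adjustment over all genes tested and a threshold of 0.05. All 85 ribosomal protein genes passed the filter. Standard errors are approximate (the size of the log2 fold change over the root of its F statistic). CPM values use library totals without TMM factors. A further fit replaced library totals by the summed counts of the 85 genes. DESeq2 1.42.0, limma-voom (limma 3.58.1), other scalings, filters and thresholds, a replicate block, all 6 libraries and leaving out each library were alternatives, and the code was tested on simulated data. Wilson intervals (95%) and the limit from a count of 0 (3 counts) cover counting error only. Totals were 20563116 to 22131465 counts in Hes1KO and 66167, 5812598 and 12109170 in WT replicates 1, 2 and 3.

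Genes were named by role: stalk proteins and Rpsa, paralogues with their parents, the smallest p-values in each fit, the extremes per coding length, X-linked genes, and leading genes of each companion list. The genes and lists were chosen with earlier results of these data known, and some genes that the rule names are not reported here. Coding lengths (82 genes), copies (blastn 2.17.0) and snoRNA spans came from GENCODE M21 on GRCm38, and promoters from RefSeq on GRCm38.p6.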

Additional observations from a re-analysis of the deposited data

Results flagged for a closer look

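In WT replicate 1, which was left out of the 5-library comparison, the lower bound of the 95% Wilson interval of 9 genes lay above the level in each of the other 5 libraries. Rpl22 stood there at 7874 CPM (521 counts), Rpl4 at 2494 CPM, Rplp0 at 2237 CPM, Rpl14 at 1995 CPM and Rps28 at 1799 CPM. Rps9 stood at 1013 CPM, Rps2 at 499 CPM, Rps6 at 227 CPM and Rps27l at 181 CPM, the last from 12 counts. In the other 5 libraries Rpl22 lay between 67.2 and 393 CPM and Rps28 between 4.65 and 25.6 CPM. These intervals cover counting error only.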

How the results depend on the processing

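The count of called ribosomal protein genes, 5 with 32 at an unadjusted p under 0.05, was 4 to 5 under TMM with singleton pairing, removal of haemoglobin, both other filters, limma-voom and the robust fit. It was 3 under relative log expression, 3 under upper quartile scaling and 3 with legacy dispersions, 20 with DESeq2, 28 at a threshold of 0.1, and 0 at 0.01, with library size alone (42 at an unadjusted p under 0.05) and with all 6 libraries. Leaving out each library gave 0 to 56, where fits with 1 WT library take their spread from Hes1KO alone. Over all genes the 2513 calls (1204 higher, 1309 lower) became 803 higher and 1790 lower under upper quartile scaling, 4997 with DESeq2, 1440 with limma-voom, 5473 at 0.1, and 0 at 0.01, with library size alone (3679 at an unadjusted p under 0.05) and with all 6 libraries, and ranged from 0 to 6210 with a library left out. Companion lists gave 11 calls, 6 without a filter, 25 with DESeq2, 7 with legacy dispersions, 31 at 0.1, 0 in the settings that removed the calls above, and 0 to 56 with a library left out. The median of the class, 0.79, was 1.41 with library size alone and 0.48 to 1.41 with a library left out. The ratio of shares, 2.67, ranged from 2.04 to 3.86 with a library left out. Scaled to the class, 4775 genes were called, 2590 with limma-voom, 7314 at 0.1, 0 at 0.01 and with all 6 libraries, and 0 to 9360 with a library left out. Of the class, 2 were called there, 4 with DESeq2, 1 with limma-voom, 6 at 0.1, 0 at 0.01 and with all 6 libraries, and 0 to 37 with a library left out. The cause of these changes was not tested.

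Same-numbered libraries did not all deviate together (r = 0.153, 0.00704 and 0.244 for replicates 1, 2 and 3). Hes1KO replicates 1 and 3 correlated best with the WT library of the same number, and Hes1KO replicate 2 with WT replicate 1 (0.0218). Deviations from means of 3 libraries, with WT replicate 1 shallow, cannot decide whether the libraries were paired. With the replicate block, edgeR called 0 genes, 0 of the class (6 at an unadjusted p under 0.05) and 0 companions in 5 libraries, and 0 of each in 6 libraries, where the median of the class was 1.30; scaled to the class it called 0 as well.

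Signs turned for values near zero and also for larger ones, such as Rpl22 (1.53), Rheb (1.00) and Eif3m (0.80), the last 2 called, with all 6 libraries. With all 6 libraries Eif3m stood at -0.089, Rheb at -0.094, Rpl11 at 0.13, Rpl17 at 0.11, Rpl22 at -2.40 (-2.61 scaled to the class), Rpl3 at 0.20, Rplp0 at -0.39 and Rps12 at 0.14. With the block in 6 libraries Rpl11 stood at 0.31, Rpl17 at 0.36, Rpl3 at 0.61, Rpl39 at 0.26, Rplp0 at -0.12, Rps12 at 0.35 and Taf1a at 0.015 and, scaled to the class, Rpl22 at -0.54 and Rpl41 at 0.20. With library size alone Rpl11 stood at 0.27, Rpl17 at 0.29 and Rps12 at 0.35, and without a filter Rpl11 at 0.062, Rpl3 at 0.020 and Rps12 at 0.046. Rpl28 stood at -0.0028 under relative log expression, -0.15 under upper quartile scaling, -0.032 with DESeq2 and -0.0064 with limma-voom, and Rpl41 at -0.073 under upper quartile scaling. With a library left out the extremes were reached without WT replicate 2 and without WT replicate 3, in that order: -0.39 and 0.052 for Rpl17, 0.60 and -0.27 for Rpl28, 0.61 and -0.63 for Rpl3, 0.24 and -1.75 for Rpl39, -0.13 and 0.50 for Rpl41, -0.18 and 0.85 for Rplp2, -0.27 and 0.068 for Rps12, -0.10 and 2.17 for Rps27, -0.33 and 1.87 for Rps4l, and 1.18 and -0.30 for Rpsa.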

Other observations

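The abundant and the rare genes of the class were the same in most libraries. Rpl4, Rps3, Rplp0, Rpl8, Rpl13a, Rps9 and Rps15 were among the 10 highest by count in each of the 3 Hes1KO libraries and in WT replicates 2 and 3. Those 10 took 53.9, 54.5 and 53.7% of the summed ribosomal protein counts in Hes1KO, 48.6% in WT replicate 2 and 54.1% in WT replicate 3. In WT replicate 1 the 10 highest took 92.9%. Above 100 CPM there were 35, 34 and 34 of the 85 genes in Hes1KO replicates 1, 2 and 3, 23 in WT replicate 2 and 9 in WT replicate 3.

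Pseudogenes did not all follow the class. Rpl27a-ps4 had 5.92, 5.34 and 7.05 CPM in Hes1KO, 58.8 CPM in WT replicate 2 and 2.89 CPM in WT replicate 3 (log2 fold change -2.27, SE 0.70, edgeR adjusted p = 0.0756). Rpl17-ps10 had 13.1, 14.0 and 12.1 CPM, then 68.6 and 5.04 CPM. In both, as in Rpl39, WT replicate 2 was the highest library. Rps12-ps24 ran the other way, with 61.6, 48.9 and 46.0 CPM in Hes1KO, 0.688 CPM in WT replicate 2 and 11.6 CPM in WT replicate 3. Rpl17-ps10 and Rps12-ps24 were named after their values were seen.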
